A study of Mus musculus with 15 samples.

Results

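The genes described here encode the machinery with which proximal tubule cells of the kidney take filtered protein back from the urine. The 7 genes were chosen by name: Lrp2, Cubn, Amn, Dab2, Lrpap1, Clcn5 and Fcgrt. A gene was measured by the probe sets that carry its symbol alone in the platform annotation, and where it had several, by the brightest over the 15 arrays. This rule found 6 of the 7 genes, of 19938 genes with a probe set of their own, and Fcgrt, the neonatal Fc receptor, which carries albumin and IgG, was not analysed here. Dab2 had 2 such probe sets and the other measured members had 1 each.

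The arrays hold mouse kidney RNA in 4 groups. The JG group is 5 single YFP-positive cells, numbered 4 to 8, picked from the juxtaglomerular region of adult male Ren1c-YFP mice, in which a renin reporter marks the cells (1 protocol passage names a Ren1d GFP reporter instead). The MM group is 4 single cells of the metanephric mesenchyme, numbered 14, 15, 16 and 19, picked at embryonic day 11.5 from Tg(Crym-EGFP)GF82Gsat mice of unknown sex. Diluted cortex is 3 libraries, A to C, of lysed cortex from adult male Ren1c-YFP mice, diluted and then put through the amplification used on the cells, with 32 recorded rounds. Standard cortex is 3 libraries, A to C, of cortex from the same kind of mice, labelled with the NuGEN WT-Ovation Pico kit with 1 recorded round. All mice carried a fluorescent reporter, the strain is unspecified, and the labels say that samples were not pooled. No label names the animal behind a cell or library, so each group of cells counted as 1 sample and was compared with no test, and a p between the cortex groups measures only the spread between these libraries, which may be technical.

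Megalin, the product of Lrp2, and cubilin, the product of Cubn, are the large receptors on the apical surface of the proximal tubule that bind albumin, vitamin carriers and other filtered proteins. Cubilin has no membrane anchor of its own and is brought to the surface by amnionless, the product of Amn. The adaptor Dab2 links the tail of megalin to clathrin, the chaperone RAP, encoded by Lrpap1, keeps ligands away from newly made megalin, and the chloride/proton exchanger ClC-5, encoded by Clcn5, serves the early endosomes in which the vacuolar proton pump lets receptors release their ligands. Loss of this uptake gives low molecular weight proteinuria, as in Dent disease with mutations of CLCN5 in humans.

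The windows before the gene starts are shown for the members that moved farthest between the cortex groups, the receptors Lrp2 and Cubn in one direction and Amn in the other. Each holds the 250 bases before the start in the RefSeq annotation of GRCm38.p6, 5′ to 3′ on the strand of the gene, with motif letters in capitals: GGGCGG or its complement CCGCCC, the GC box, and CCAAT or its complement ATTGG, the CCAAT box. Lrp2 lies on the minus strand at chr2:69586030-69586279, Cubn on the minus strand at chr2:13491877-13492126 and Amn on the plus strand at chr12:111270846-111271095.
Lrp2: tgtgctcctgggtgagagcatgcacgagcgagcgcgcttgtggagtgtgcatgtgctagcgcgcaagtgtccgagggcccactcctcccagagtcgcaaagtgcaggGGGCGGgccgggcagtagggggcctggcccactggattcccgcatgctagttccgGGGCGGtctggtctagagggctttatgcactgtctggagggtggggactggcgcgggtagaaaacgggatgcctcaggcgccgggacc
Cubn: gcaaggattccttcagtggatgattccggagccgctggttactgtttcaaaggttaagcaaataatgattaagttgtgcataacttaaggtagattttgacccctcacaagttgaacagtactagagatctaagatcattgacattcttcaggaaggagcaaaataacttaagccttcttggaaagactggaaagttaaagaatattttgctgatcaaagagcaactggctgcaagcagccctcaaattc
Amn: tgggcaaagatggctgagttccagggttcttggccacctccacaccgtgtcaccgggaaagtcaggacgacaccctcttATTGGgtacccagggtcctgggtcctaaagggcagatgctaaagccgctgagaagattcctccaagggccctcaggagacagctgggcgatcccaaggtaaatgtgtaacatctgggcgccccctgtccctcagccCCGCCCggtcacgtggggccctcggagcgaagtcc
The Lrp2 window has 66.4% G and C and 2 GC boxes. The Amn window has 61.2% G and C, with 1 GC box and 1 CCAAT box. The Cubn window has 39.6% G and C, against a median of 52.4% over all promoter windows, and holds none of the 5 motifs searched on both strands. These were GTTAAT (an HNF1 type site, in 6.43% of 32851 promoter windows of that length), CAAAGTCCA (an HNF4 type site, 0.384%), GGGCGG (32.7%), CCAAT (33.8%) and TATAAA (the TATA box, 12.4%), and no 2 matches in the member windows overlapped. All 7 members matched the table, with 9 windows in all. Among the others, Lrpap1 had 5 GC boxes, Clcn5 had a GC box before 1 start and a TATA box before the other, and Dab2 had 1 GTTAAT before 1 of its 2 starts. A match is a description of letters only.

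Values are log2 probe set signals, and the background of each array was set by 1194 olfactory and vomeronasal receptor genes. A gene is called above background where its signal passes their 99th percentile on its own array. That level was 7.56 to 7.94 on JG arrays, 7.15 to 7.57 on MM arrays, 6.19 to 6.30 on diluted cortex arrays and 6.31 to 6.52 on those of standard cortex. By this measure 6.70% to 14.2% of all genes were above background in a JG cell, 10.8% to 20.8% in an MM cell, 48.2% to 50.4% in a diluted library and 43.7% to 48.1% in a standard library. Relative to diluted cortex, the median receptor gene lay 1.02 higher on JG arrays and 0.81 higher on MM arrays (log2). Of the 4 measured renin cell markers, Mgp and Crip1 were above background in 5 of 5 JG cells, Rgs5 in 3 and Aldh1a1 in 0, and the defining Ren1 was not analysed here. Of the 7 cap mesenchyme markers, Crym and Cited1 were above background in 3 of 4 MM cells, Six2 in 2, Osr1 and Meox1 in 1, and Eya1 and Sall1 in 0, while Cited1 was also above background in 4 of 5 JG cells. All 12 proximal tubule markers were above background on every cortex array, and 0 to 2 of them in any JG cell and 1 to 2 in any MM cell.

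All 6 measured members were above background on every array of cortex, by both labelling methods. Of the members, only Amn was above background in every single cell, in 5 of 5 JG cells and 4 of 4 MM cells. Lrpap1 was above background in MM cell 15 alone. Of the distal tubule and collecting duct markers only Aqp2 passed in the cells, and it did so in 5 of 5 JG and 4 of 4 MM cells. Whether the signal of Amn or Aqp2 in the cells comes from their transcripts was not tested. Of all genes, 3.32% were above background in every JG cell, 6.52% in every MM cell, 15.6% in MM cell 15, 45.8% in every diluted library and 42.7% in every standard one. Summed over cells, 5 of 30 member values were above background in JG cells, against 10.1% of the values of all genes, and 5 of 24 in MM cells, against 17.0%. At the 95th percentile of the receptors the count was 10 in each group, with Lrpap1 then passing in all 9 cells, Dab2 in 2 MM cells and Lrp2, Cubn and Clcn5 in 0, against 30.9% of the values of all genes in JG cells and 36.4% in MM cells. Within the cortex the members split by labelling method. Lrp2, Cubn, Clcn5 and, by less, Dab2 were lower in diluted than in standard cortex, while Amn and Lrpap1 were higher.

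**Figure D1:**
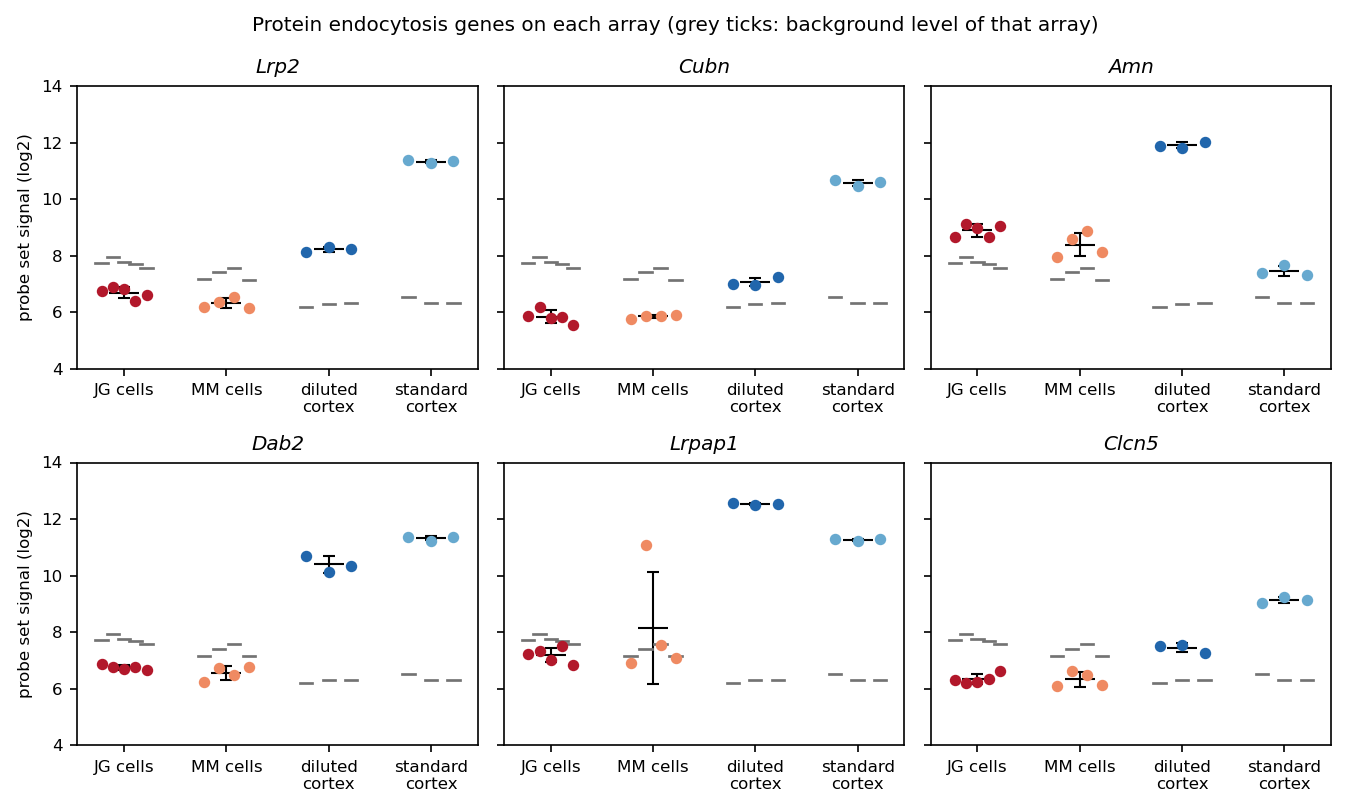
Signal of each measured member (vertical axis, log2) on each of the 15 arrays, by group on the horizontal axis; points are arrays, black bars the group mean with its SD over 5 JG cells, 4 MM cells, 3 diluted and 3 standard cortex libraries, and grey ticks the background level of each array. In the cells, the points of Amn lie above the ticks on all arrays, as does the point of Lrpap1 in MM cell 15 at 11.08, while the other points lie below them.

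Lrp2 encodes megalin, the receptor with the widest range of ligands. Its signal was 6.75, 6.87, 6.82, 6.39 and 6.59 in JG cells 4 to 8 and 6.18, 6.35, 6.54 and 6.15 in MM cells 14, 15, 16 and 19. It was 8.13, 8.30 and 8.21 in diluted cortex A to C and 11.38, 11.26 and 11.33 in standard cortex A to C. The cell groups overlapped, every diluted library lay above every cell, and every standard library lay above every diluted one. In diluted cortex Lrp2 was 8.64-fold lower than in standard cortex, a difference of -3.11 (SE 0.0885, 95% interval -3.32 to -2.91, limma with Benjamini-Hochberg adjustment over 19531 probe sets, adjusted p = 7.34e-08).

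Cubn encodes cubilin, which binds albumin and the intrinsic factor complex of vitamin B12. Its signal was 5.86, 6.17, 5.79, 5.83 and 5.53 in JG cells 4 to 8 and 5.76, 5.85, 5.87 and 5.91 in MM cells 14, 15, 16 and 19. It was 6.98, 6.96 and 7.23 in diluted cortex and 10.67, 10.46 and 10.61 in standard cortex. As for Lrp2, standard cortex was highest and diluted cortex next, with JG and MM cells overlapping and no other overlap. Diluted cortex was 11.5-fold below standard cortex (log2 difference -3.53, SE 0.109, 95% interval -3.78 to -3.27, limma adjusted p = 8.77e-08). A fall of 3 log2 units or more past the same test was found for 2.63% of the probe sets tested, and Lrp2 and Cubn are among them.

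Amn encodes amnionless, the membrane anchor of cubilin, and its levels did not follow those of its partner. The signal of Amn was 8.67, 9.12, 8.97, 8.64 and 9.06 in JG cells and 7.96, 8.58, 8.86 and 8.14 in MM cells. It was 11.87, 11.81 and 12.02 in diluted cortex and 7.37, 7.66 and 7.32 in standard cortex. Standard cortex, the highest group for Lrp2 and Cubn, was thus the lowest for Amn, below every JG and MM cell. Diluted cortex was 21.9-fold above standard cortex (log2 difference 4.45, SE 0.117, 95% interval 4.18 to 4.72, limma adjusted p = 5.76e-08). A rise of 4 log2 units or more past the test was found for 0.348% of the probe sets.

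Dab2 is the endocytic adaptor that binds the tail of megalin. It measured 6.88, 6.77, 6.69, 6.76 and 6.67 in JG cells and 6.21, 6.73, 6.49 and 6.77 in MM cells. It measured 10.70, 10.13 and 10.35 in diluted cortex and 11.37, 11.24 and 11.36 in standard cortex. No diluted library reached a standard one, and all cortex libraries were far above all cells. Diluted cortex was 1.91-fold below standard cortex (log2 -0.93, SE 0.147, 95% interval -1.27 to -0.59, limma adjusted p = 5.68e-04), and 2.88-fold after quantile normalization of the arrays (log2 -1.53). The dimmer Dab2 probe set, at 5.71 ± 0.30 in JG cells (SD, n = 5), 5.64 ± 0.45 in MM cells (n = 4), 5.23 ± 0.32 in diluted cortex (n = 3) and 5.97 ± 0.12 in standard cortex (n = 3), stayed below the background level of every array and did not show the gap between cells and cortex.

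Lrpap1 encodes RAP, the chaperone of megalin in the endoplasmic reticulum, which other receptors of the LDL receptor family and thus other tissues use as well. It measured 7.21, 7.31, 7.02, 7.49 and 6.84 in JG cells and 6.89, 11.08, 7.53 and 7.09 in MM cells 14, 15, 16 and 19. It measured 12.55, 12.48 and 12.55 in diluted cortex and 11.28, 11.21 and 11.28 in standard cortex. MM cell 15 lay 3.55 above the next MM cell and close below the standard cortex libraries, while the other MM cells lay within 1 log2 unit of each other and overlapped the JG cells. Diluted cortex was 2.41-fold above standard cortex (log2 1.27, SE 0.0803, 95% interval 1.08 to 1.45, limma adjusted p = 2.47e-06). This call was lost in a fit of all 15 arrays, in which the cells share the estimate of the spread (limma adjusted p = 0.248, SE 0.80).

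Clcn5 encodes the exchanger of early endosomes, whose loss impairs uptake by megalin and cubilin in mice. It measured 6.31, 6.20, 6.23, 6.33 and 6.64 in JG cells and 6.07, 6.61, 6.49 and 6.13 in MM cells. It measured 7.52, 7.55 and 7.27 in diluted cortex and 9.02, 9.25 and 9.14 in standard cortex. As for Lrp2 and Cubn, standard cortex was highest and diluted cortex next, with smaller steps between these groups and down to the cells. Diluted cortex was 3.22-fold below standard cortex (log2 -1.69, SE 0.112, 95% interval -1.95 to -1.43, limma adjusted p = 3.17e-06).

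In the comparison of labelling methods, 2 of the 6 members were thus higher in diluted cortex, against 38.0% of all probe sets tested, and 4 of 6 were lower, against 36.7%. The median difference of the members was -1.31, against -0.00 over all probe sets tested. The receptor genes differed by -0.03 between the cortex groups (median), far less than any of the 6 members. Their median signals were only 4.15 to 4.22 on the cortex arrays, so this shift does not show how scaling moves bright genes. After quantile normalization Dab2 was at -1.53. Both groups are bulk tissue, in which fewer cells of a type and less RNA per cell cannot be told apart, and the labelling method cannot be told apart from any difference between the cortex samples behind the libraries. The proximal tubule markers moved otherwise than Lrp2 and Cubn: 10 of 12 were higher in diluted cortex, with a median of 1.20, and 2 were lower, among them the lactate transporter Slc5a12 at -2.77 (limma adjusted p = 9.2e-08). The phosphate transporter Slc34a1 was 2.12 higher.

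**Figure D2:**
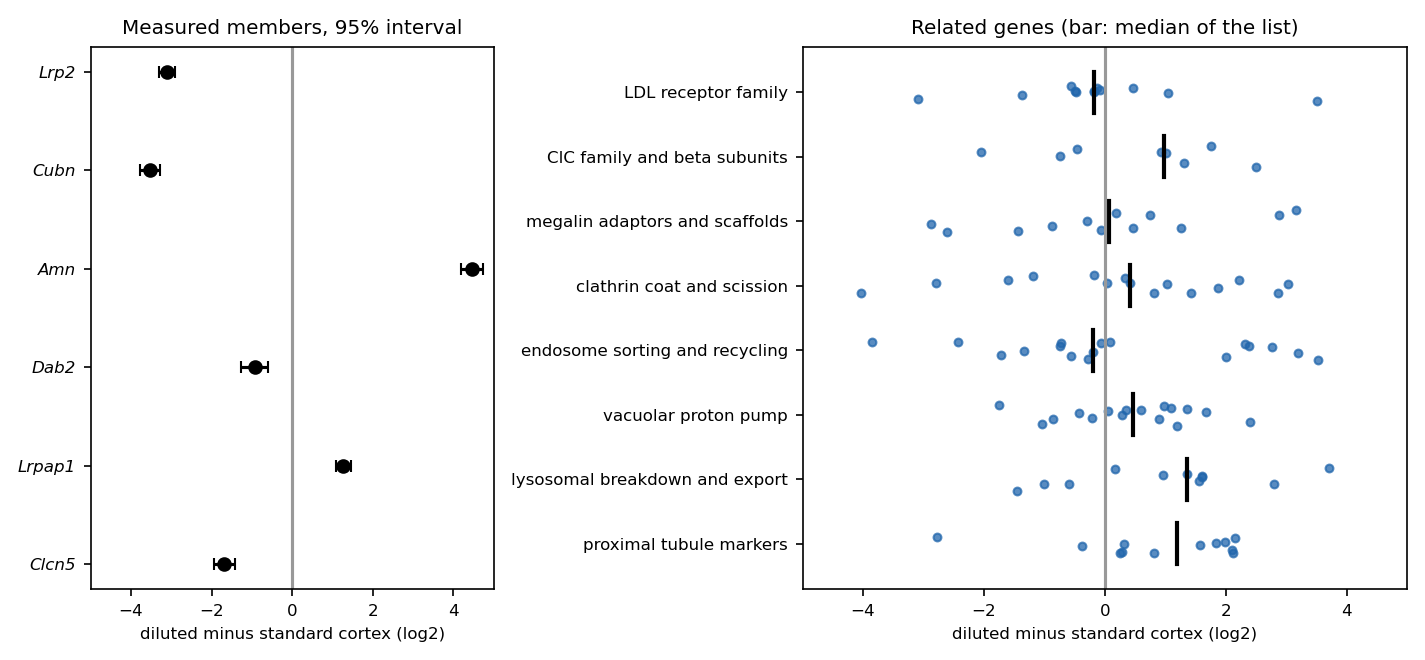
Left, diluted minus standard cortex for each measured member (horizontal axis, log2; points are limma estimates, bars their 95% intervals, 3 libraries each); right, the same difference for genes of related lists, 1 point a gene, with a bar at the median of each list. Members lie on both sides of 0, from -3.53 for Cubn to 4.45 for Amn, and each list on the right also has genes on both sides.

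The JG cells were set against diluted cortex because the labels give that cortex as the tissue amplified in the same way. Every JG cell lay below every diluted library for each of the 6 measured members. The difference of group means was -1.53 for Lrp2, -1.22 for Cubn, -3.01 for Amn, -3.64 for Dab2, -5.35 for Lrpap1 and -1.11 for Clcn5 (log2, as deposited). All 6 were called lower, which asks for a difference at least 1 log2 unit below that of the receptor genes and for no overlap. Of all genes 29.3% were called lower by this rule, and of the genes above background on every diluted array, as the members were, 62.2%. The count was 5 of 6 with standard cortex in place of diluted cortex, where 26.9% of all genes were called lower. The exception was Amn, which was 1.44 higher in JG cells than in standard cortex (8.89 ± 0.22 against 7.45 ± 0.18, SD, n = 5 and 3), with every JG cell above every standard library. That separation was shared by 52.0% of all genes.

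Several of these differences depend on how the higher background of the cells is treated. With each value raised to the background level of its array, the difference between JG cells and diluted cortex was -0.48 for Lrp2, -2.66 for Dab2 and -4.79 for Lrpap1, and it stayed at -3.01 for Amn, which is above background in the cells. It turned to 0.68 for Cubn and 0.29 for Clcn5, since their levels in diluted cortex, 7.05 ± 0.15 and 7.45 ± 0.15 (SD, n = 3), lie below the background level of every JG array. A level of Cubn or Clcn5 like that of diluted cortex could therefore not be detected in a JG cell. Scaling moved other values: after quantile normalization the difference was -1.52 for Amn and -0.997 for Lrp2, and with arrays centred on the receptor genes it was -4.07 for Amn, -2.59 for Lrp2, -2.27 for Cubn and -2.16 for Clcn5. Against standard cortex, where Cubn and Clcn5 are brighter, the differences as deposited were -4.74 for Cubn and -2.79 for Clcn5, and -4.64 for Lrp2, -4.57 for Dab2 and -4.08 for Lrpap1. Markers of the proximal tubule moved with these differences: 11 of 12 were called lower in the JG cells, with a median difference of -4.93 from diluted cortex. The exception was Miox, at 12.63 in JG cell 5, above the diluted libraries at 12.36 to 12.40. It was above background in no other JG cell. Why this cell held the signal was not tested. Their median level was 6.42 to 6.93 on JG arrays and 11.97 to 12.08 on diluted cortex arrays. Markers of other nephron segments did so too, with 4 of 4 of the thick ascending limb (median -4.28) and 5 of 5 of the distal tubule and collecting duct (median -3.20) called lower.

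The MM cells come from an embryonic stage before any proximal tubule has formed. They gave the same count as the JG cells, with all 6 measured members called lower than in diluted cortex, against 24.0% of all genes and 49.7% of the genes above background on every diluted array. The differences of means were -1.91 for Lrp2, -1.21 for Cubn, -3.52 for Amn, -3.84 for Dab2, -4.38 for Lrpap1 and -1.12 for Clcn5. Without MM cell 15 the difference of Lrpap1 was -5.36. Raised to the background level, the values of Cubn turned to a difference of 0.26 and those of Lrp2 and Clcn5 shrank to -0.90 and -0.13, while Amn stayed at -3.52 and Dab2 was at -3.08. Centring on the receptor genes gave -2.06 for Cubn and -1.97 for Clcn5. Against standard cortex Amn was again higher in the cells, by 0.93 (8.38 ± 0.41 against 7.45 ± 0.18, SD, n = 4 and 3), with every MM cell above every standard library, as for 47.8% of all genes. The other 5 were called lower than in standard cortex, against 23.4% of all genes, with differences of -5.02 for Lrp2, -4.73 for Cubn, -4.77 for Dab2, -3.11 for Lrpap1 and -2.81 for Clcn5. The proximal tubule markers were called lower in 12 of 12 cases against diluted cortex, with a median difference of -5.30, those of the thick ascending limb in 4 of 4 (-4.26) and those of the distal tubule and collecting duct in 5 of 5 (-3.72).

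**Figure D3:**
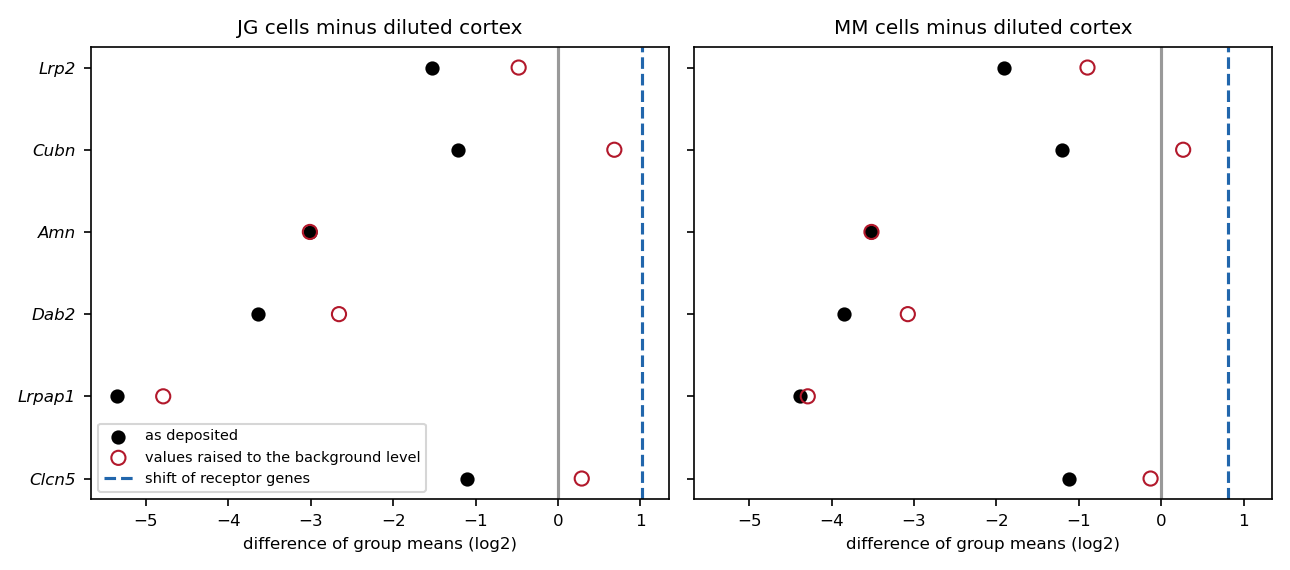
Difference of group means between JG cells (left) or MM cells (right) and diluted cortex for each measured member (horizontal axis, log2); filled points are values as deposited, open points values raised to the background level of their array, and the dashed line is the shift of the receptor genes. All filled points lie below 0 and below the dashed line, and the open points of Cubn lie above 0, at 0.68 and 0.26.

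JG and MM cells overlapped for all 6 measured members. The difference of JG and MM means was 0.38 for Lrp2, -0.01 for Cubn, 0.51 for Amn, 0.21 for Dab2, -0.97 for Lrpap1 and 0.02 for Clcn5, and the receptor genes differed by 0.22. The value of Lrpap1 rests on MM cell 15, without which it was 0.01. Only Amn was above background in both groups, and its difference, close to the SD over MM cells of 0.41, was 1.29 after quantile normalization.

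The genes whose profile over the 15 arrays came nearest to a member were found by the mean absolute difference of log2 values, each gene taken relative to its own mean. Lrp2 and Cubn had profiles close to each other, at 0.233, where the median distance of all genes was 1.86 from Lrp2 and 1.76 from Cubn. Cubn was the 8th nearest gene to Lrp2 and Lrp2 the 6th nearest to Cubn, and the protein kinase subunit Csnk2a1 was among the 5 nearest to each (0.204 and 0.230). Nearest of all were the deubiquitinase Cyld for Lrp2 (0.163) and Odr4 for Cubn (0.186), with Ptprd, Gmfb and Trip12 next for Lrp2 and the ubiquitin ligase genes Fbxo11 and Smurf2 with Ccser2 for Cubn.

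Amn came nearest to Aqp2, the vasopressin-regulated water channel of collecting duct principal cells, at a distance of 0.183. Aqp2 had signals of 8.67 to 8.97 on JG arrays and 8.15 to 8.50 on MM arrays. Diluted cortex had 11.82 to 12.17, and standard cortex 7.48 to 7.55. Amn was thus nearer to a gene of another nephron segment than to its partners, since its distance to Lrp2 was 2.05 and to Cubn 2.07, both above the median distance of 1.38 from Amn to all genes. The next nearest to Amn were Dohh, Spsb3, Slc25a10 and Acbd4, at 0.298 to 0.360.

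The nearest genes to Dab2 were Slc22a22, F13b, the bile acid receptor Nr1h4, Papss2 and Hsd3b2, at 0.169 to 0.214. For Clcn5 they were Ate1, Pphln1, Rufy3, Mapk1ip1l and N4bp2l2, at 0.138 to 0.177. Lrpap1 came nearest to Psap, which encodes the precursor of the lysosomal saposins, at 0.280. The others of the 5 nearest to Lrpap1 were the peroxisomal enzyme Hsd17b4, Gstk1, the proton pump subunit Atp6v1e1 and the complement factor Cfb. In MM cell 15 Psap, Hsd17b4, Gstk1 and Atp6v1e1 were above the background level of 7.41, at 9.95, 10.49, 9.54 and 10.90. Cfb was not, at 6.69, and of all genes 15.6% were. MM cell 15 is among the arrays that set the distances, so the choice itself favoured genes bright in that cell. These distances describe 15 arrays that share 4 groups, so most of each profile is the step between groups.

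**Figure D4:**
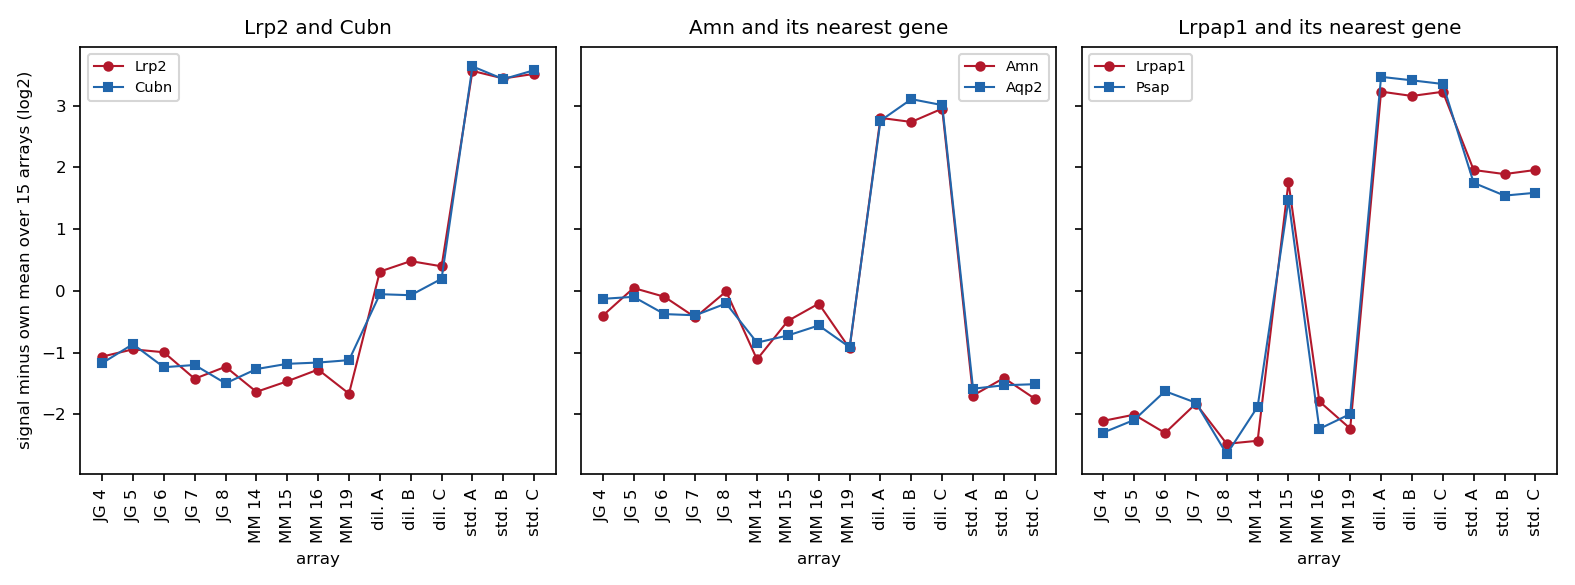
Signal on each of the 15 arrays relative to the mean of the gene over all arrays (vertical axis, log2) for Lrp2 and Cubn, for Amn and its nearest gene Aqp2, and for Lrpap1 and its nearest gene Psap; arrays run from JG and MM cells to diluted and standard cortex. Lrp2 and Cubn lie lower in diluted than in standard cortex where Amn and Aqp2 lie higher, and Lrpap1 and Psap share the high value of MM cell 15.

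Genes that work with the members were counted in lists. Of all genes 29.3% were called lower in JG cells and 24.0% in MM cells. Among genes above background on every diluted array the shares were 62.2% and 49.7%. Between the cortex groups 38.0% of probe sets tested were higher in diluted cortex and 36.7% lower. A list count near these shares is not particular to that list. Of the adaptors and scaffolds of megalin, 5 of 10 tested were higher and 4 lower in diluted than in standard cortex. The scaffold Gipc1 was 3.17 higher (limma adjusted p = 1.22e-07) and Slc9a3r1, which encodes the scaffold NHERF1, 2.88 higher (8.74e-08), while the motor Myo6 differed by -2.62 (2.76e-06) and the adaptor Numb differed by -2.87 (1.24e-07). Against diluted cortex, 6 of 12 measured genes of this list were called lower in JG cells and 5 in MM cells, with medians of -0.76 and -0.11. Gipc1 was -2.98 from diluted cortex in JG cells but 0.39 in MM cells, where it was above background in 4 of 4 cells.

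Clathrin carries the receptors inward. Of the coat and scission genes 9 of 14 tested were higher in diluted cortex and 4 lower, with the clathrin heavy chain Cltc at -2.79 (limma adjusted p = 8.77e-08), the coat nucleator Fcho2 at -4.03 (1.5e-07) and the adaptor subunits Ap2m1 and Ap2s1 at 2.22 and 3.03. In JG cells 10 of 15 measured and in MM cells 6 of 15 were called lower than in diluted cortex. The genes of endosome sorting and recycling gave 6 higher and 8 lower of 17 in diluted cortex, from the tether Eea1 at -3.85 (limma adjusted p = 1.84e-07) to Rab17 at 3.52, and 12 of 17 were called lower in each cell group. Rab11a, a GTPase of recycling endosomes, differed by -5.26 between JG cells and diluted cortex, by -2.12 between MM cells and diluted cortex and by -0.20 between the cortex groups (limma adjusted p = 0.134).

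The vacuolar proton pump, which acidifies the endosomes that ClC-5 serves, had 10 of 16 subunit genes higher and 5 lower in diluted cortex, and 10 and 13 of 16 were called lower in JG and MM cells, with medians of -3.78 and -3.50. Of the lysosomal genes, 7 of 11 were higher and 3 lower, with the sialidase Neu1 at 3.70, and 8 and 9 of 11 were called lower in JG and MM cells. Legumain, Lgmn, a protease active in proximal tubule lysosomes, was -6.40 in JG cells and -5.15 in MM cells from diluted cortex. Only 1 MM cell had it above background, at 10.98.

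Relatives of the members were mixed. Of the LDL receptor family, to which megalin belongs, 3 of 11 tested were higher and 5 lower in diluted cortex, with the Wnt coreceptor Lrp6 at -3.09 (limma adjusted p = 6.4e-08) and Lrp10 at 3.52 (8.61e-08), so a gap about as wide as that of Lrp2 was measured for a relative too. Only 2 and 3 of 12 were called lower in JG and MM cells, and the list medians, 0.57 and 0.49, were near those of all genes, 0.56 and 0.42. Of the ClC family genes related to Clcn5 and the beta subunits of that family, 5 of 7 tested were higher and 2 lower. The 5 were the ClC family genes Clcn2, Clcn4 and Clcn7 and the beta subunits Bsnd and Ostm1, which are not ClC proteins, and the 2 were Clcn3 and Clcn6. The endosomal exchangers Clcn3 and Clcn4 differed by -2.05 and 1.32. In each cell group 6 of 8 were called lower, both beta subunits among them. Among the proteins that the receptors carry, 6 of 11 genes were higher and 2 lower in diluted cortex. The transcobalamin gene Tcn2 differed by 1.39 between the cortex groups, and by -4.56 in JG cells and -4.78 in MM cells from diluted cortex. It was above background in only 1 JG cell, at 12.56, and 1 MM cell, at 11.41, so the means do not describe each cell.

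Markers of other cell types that the samples could hold moved as well. The macrophage list had 5 of 5 tested genes higher in diluted than in standard cortex, with a median level of 7.55 to 7.68 on diluted arrays and 5.82 to 6.03 on standard arrays. Of the thick ascending limb markers 1 of 4 was higher and 3 lower, of the vascular smooth muscle markers 1 of 5 was higher and 1 lower, and of the endothelial markers 2 of 6 were higher and 2 lower. Of those of the distal tubule and collecting duct 3 of 5 were higher and 0 lower, with Aqp2 4.50 higher (limma adjusted p = 4.37e-08). The visceral endoderm of the yolk sac, another site of these receptors, had 0 of 4 markers called lower in JG cells and 1 of 4 in MM cells. These counts say little, since Apob was above background in 0 diluted libraries and Afp in 2. Ttr ran from 6.64 to 11.02 over the diluted libraries and so overlapped the JG cells, at up to 6.95, despite a difference of -2.71. The part of other cell types in the differences of the members was not tested.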

How the data were processed

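RNA of single cells and cortex libraries was hybridised to 15 arrays. The authors deposited log2 signals, judged so by their range, from 2.22 to 13.98 over 35557 probe sets with none missing. Affymetrix Expression Console is named in the submitters' processing notes, without a version. The summary method and any normalization by the authors are not stated there, and the log2 values were used unchanged. An array has no count depth, and the number of arrays limits the precision.

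Symbols come from the platform annotation, which names no build: 21789 probe sets carry 1 symbol, 1621 several, and 12147 are unlisted. Through RefSeq GRCm38.p6, 21698 matched and 0 changed symbol. Promoter windows are RefSeq's.

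Diluted and standard cortex were compared by limma 3.58.1 in R 4.3.3, with eBayes, on probe sets at or above the overall median in the group with the higher mean, with Benjamini-Hochberg adjustment and a threshold of 0.05. The procedure was tested on simulated data. Cells were compared by differences of means, with no test. Other values were computed in Python with numpy 2.4.6 and pandas 2.3.3. Named are the members, the 5 nearest genes per member and, from most lists, up to 4 genes. These rank among the 4 largest absolute differences of their list in any comparison of JG or MM cells with diluted cortex or of the cortex groups. Others with large differences were left unnamed, such as Pdzk1, at -5.91 in JG cells from diluted cortex. The measured renin cell and cap mesenchyme markers and the tested ClC family genes and beta subunits were named in full. Miox and Ttr were named to explain counts. Chosen after the values were seen were these 2, the MM cell 15 values of nearest genes and the counts at 3 and 4 log2 units. So were the shares at the 95th percentile and the share among genes above background on every diluted array. The members and lists were chosen with earlier results of these data known. The letters A to C were not taken as pairs. Deviations of same-letter libraries correlated weakly, at 0.156, 0.15 and 0.035, against -0.177 to 0.055 for different letters. Whether a letter names the same tissue in both cortex groups was not established. Alternatives were the normalization, the background, the filter, the probe set rule, the replicate block, the samples fitted and leaving out each cell or library.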

Additional observations from a re-analysis of the deposited data

Results flagged for a closer look

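Among the 12 groups of 4 or 5 cells in which a member was measured, 1 held a cell far from the others, and chance gives such a gap in about 1 group in 20. Lrpap1, the chaperone of megalin, had a signal of 11.08 in MM cell 15, 3.55 above the next MM cell (log2), where the other MM cells lay at 6.89, 7.53 and 7.09. The gap was 0.848 of the range of the group, against a critical value of 0.829. Its cause was not tested.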

How the results depend on the processing

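All 6 measured members stayed lower in the cells than in diluted cortex, and the cortex split stayed at 2 higher and 4 lower, when any cell or library was left out. The median difference over the members of JG cells and diluted cortex was -2.27, and -2.32 to -2.20 with a cell or library left out. It was -1.43 after quantile normalization, -3.33 with arrays centred on the receptor genes, -1.56 with the mean over probe sets of a gene, -1.57 with values raised to background and -4.33 against standard cortex. For MM cells it was -2.71, and -2.83 to -2.62 with a cell or library left out. Under the same alternatives, in that order, it was -2.07, -3.56, -1.81, -1.99 and -3.92. The difference of JG and MM cells, 0.11, was 0.42 with values raised to background. Lrp2, Cubn, Dab2 and Clcn5 then take the background level in every cell. The 0.42 is thus the difference of the background levels and does not describe the members. In the comparisons with cortex, Cubn and Clcn5 in JG cells (0.68 and 0.29) and Cubn in MM cells (0.26) turned in sign with values raised to background. Amn turned in JG and MM cells against standard cortex (1.44 and 0.93). Differences of JG and MM cells are left out of this list, and there Cubn went from -0.01 to 0.42 with values raised to background. Members called lower were 4 in each cell group with values raised to background, 5 in each against standard cortex, and 5 in MM cells after quantile normalization or with a margin of 2 log2 units. At the 95th percentile of the receptors, 10 of 30 member values in JG cells and 10 of 24 in MM cells were above background, against 5 in each at the 99th, while the share of all gene values was 30.9% and 36.4%, against 10.1% and 17.0%. A fit of all 15 arrays left 1 member higher in diluted cortex, with Lrpap1 losing its call, and it called 3583 probe sets higher and 3868 lower, against 7430 and 7169; the mean over probe sets called 3858 lower of 11241 genes, fewer being tested. After quantile normalization the cortex difference of Dab2 was -1.53 and that of Clcn5 -1.30. With the letters as a replicate block the counts were 7461 and 7170 and the members kept their 2 and 4 calls (Lrp2 adjusted p = 7.96e-06, Dab2 7.81e-04, limma). Of the values of single members under an alternative, 347 were counted as unchanged and 45 as moved, the latter by more than the spread between replicates. For the differences between cells and cortex, unchanged meant a move within that spread and no turn in sign. The background of the cell arrays limits what can be detected of Cubn in both cell groups and of Clcn5 in JG cells. For MM cells the Clcn5 level of diluted cortex, 7.45, lay within the range of background levels, 7.15 to 7.57.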
